A study of Homo sapiens with 42 samples.

Results

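The 40 genes described here act in G2 phase and mitosis, and they were followed in RPMI-8226 cells, a human multiple myeloma line derived from malignant plasma cells. They comprise 8 genes of cyclins, control of the cyclin-dependent kinase and the transcription factor FOXM1, 7 of the spindle checkpoint and of anaphase, 6 coding for mitotic kinases and survivin, 4 of the centromere and kinetochore, 6 kinesins and 9 of the spindle, chromosome structure and cytokinesis. They were chosen by name, and each was read from the brightest of its probe sets by mean signal, among the probe sets annotated to that gene alone. All 40 passed the filter on dim probe sets, out of 14704 genes tested. They had 81 such probe sets, of which 77 passed, and 18 of the 40 had a single one.

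RNA was hybridised to Affymetrix U133 Plus 2 arrays in 14 groups of 3, 42 arrays in all. The first line carried an inducible short hairpin RNA (shRNA) against BMI1 and was profiled with doxycycline at 100 ng/ml, the agent that switches the hairpin on, after 24, 32 and 48 h. The same line was profiled without doxycycline at 24, 32 and 48 h, and at 0 h. The second line carried a control shRNA and had arrays for dosed cells at 24, 32 and 48 h and for undosed cells at 0, 24, 32 and 48 h. Both were RPMI-8226 cells stably infected with the hairpin and grown in Advanced RPMI medium with 1% FBS. Each hairpin is represented by 1 such line, so a difference between the lines cannot be told apart from one that arose when each was made. The labels of the BMI1-shRNA 0 h arrays disagree: their titles have no doxycycline, their characteristics list it, and their source names point to the control-shRNA line. They were used as undosed BMI1-shRNA arrays, as the title says, and entered only the comparisons with 0 h. On them BMI1 averaged 1032 ± 32.4 signal units, near the undosed BMI1-shRNA arrays of later times. So BMI1 was not lowered on them, but at 0 h this cannot tell whether doxycycline had just been added. UBE2C, which separates the lines, read 312.7, 308.1 and 304.8 on them, near the BMI1-shRNA line and not the control-shRNA line. Nothing states whether the 3 arrays of a group stem from different cultures, so every p-value rests on the spread among these samples alone, which may be technical.

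BMI1 is a Polycomb protein that helps to keep genes silent. Entry into mitosis depends on CDK1 bound to cyclin B, which CDC25 phosphatases activate and which PLK1 and the Aurora kinases act beside. Kinesins move and shorten spindle microtubules, the checkpoint proteins BUB1, BUB1B, BUB3 and MAD2L1 delay anaphase, and CDC20 and UBE2C serve the ubiquitin ligase that ends mitosis. Transcripts of these genes accumulate in G2 and mitosis, so in RNA of a whole culture fewer cells in those phases and less transcript per cell cannot be told apart.

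The hairpin acted on its target. The BMI1 probe set, which is also annotated to a BMI1 read-through gene, averaged 177 ± 32.0 signal units in the 9 dosed and 975 ± 112 in the 9 undosed BMI1-shRNA arrays, against 1243 ± 69.8 in dosed and 1214 ± 54.2 in undosed control-shRNA arrays (SD, n = 9 each). Signals were scaled by MAS5 to a common trimmed mean of 150.02 to 150.03, and array medians lay at 16 to 22.5. The summed signal of 6 plasma cell markers was 5728 to 7796 on every array, while those of T cell and monocyte markers were at most 62.7 and 63.1. Epithelial markers summed to 2558 to 4133, mostly EPCAM, which averaged 3443 in the BMI1-shRNA line and 3058 in the control-shRNA line. CDH1, of the same list, averaged 377 in the BMI1-shRNA line and 45.3 in the control-shRNA line, and the plasma cell marker CD38 averaged 509 in the BMI1-shRNA line and 242 in the control-shRNA line. The part of these markers in the differences between lines was not tested. The ratio of 3' to 5' GAPDH probe signal, a measure of RNA integrity, was 0.935 ± 0.0251 in the BMI1-shRNA line and 1.03 ± 0.0401 in the control-shRNA line (SD, n = 21 arrays each), and its part in the differences between lines was not tested.

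Genes of this class are known for 2 promoter elements, the cell cycle genes homology region, TTTGAA, and the CCAAT box. Both were searched on both strands of the 250 bases upstream of each gene start in RefSeq, build GRCh38.p14, where 33 of the 40 genes were matched. The genes with no entry there were AURKA, BUB3, TTK, UBE2C, BIRC5, TPX2 and FOXM1. TTTGAA stood in 18 of the 33, or 54.5%, against 16.1% of 27305 genes in the table. The variant TTCGAA stood in 1, or 3.03%, against 1.5%. CCAAT stood in 28, or 84.8%, against 37.0%, and occurred at least 2 times in 18, or 54.5%, against 11.5%. A gene with several start sites counted if any of its windows held the motif, and none of the 3 motifs contains another. The promoters printed here are those of the 3 matched genes whose response to doxycycline differed between the lines, KIF4A, KIF2C and HMMR, and of ASPM, which was above its 0 h level at every later time tested in both lines. Capitals mark TTTGAA and CCAAT, or TTCAAA and ATTGG where the motif is on the other strand.
KIF4A, chrX:70289854-70290103, plus strand: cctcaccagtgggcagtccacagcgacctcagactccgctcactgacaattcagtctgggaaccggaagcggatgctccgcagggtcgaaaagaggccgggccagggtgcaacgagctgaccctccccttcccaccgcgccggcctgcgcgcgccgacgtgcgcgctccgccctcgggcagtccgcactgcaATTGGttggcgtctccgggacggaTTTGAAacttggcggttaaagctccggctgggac
KIF2C, chr1:44739587-44739836, plus strand: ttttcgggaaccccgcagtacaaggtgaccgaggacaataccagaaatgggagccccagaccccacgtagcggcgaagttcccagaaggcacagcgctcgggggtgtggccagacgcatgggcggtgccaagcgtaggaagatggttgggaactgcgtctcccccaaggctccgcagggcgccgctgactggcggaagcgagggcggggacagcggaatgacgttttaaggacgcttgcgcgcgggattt
HMMR, chr5:163460382-163460631, plus strand: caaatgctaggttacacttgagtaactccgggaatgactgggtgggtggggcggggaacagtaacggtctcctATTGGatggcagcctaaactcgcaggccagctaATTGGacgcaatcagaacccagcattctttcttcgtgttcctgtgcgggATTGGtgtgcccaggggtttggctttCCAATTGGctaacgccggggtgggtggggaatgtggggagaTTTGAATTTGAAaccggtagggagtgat
ASPM, chr1:197146670-197146919, minus strand: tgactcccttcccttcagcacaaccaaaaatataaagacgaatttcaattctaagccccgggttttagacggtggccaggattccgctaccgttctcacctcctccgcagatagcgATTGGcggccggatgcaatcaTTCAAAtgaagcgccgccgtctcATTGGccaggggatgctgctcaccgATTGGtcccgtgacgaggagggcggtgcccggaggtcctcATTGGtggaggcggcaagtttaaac
The KIF4A window held TTTGAA and 1 CCAAT, the HMMR window TTTGAA and 5 CCAAT, and the ASPM window TTTGAA and 4 CCAAT. The KIF2C window held neither, which says only that these letters are not in it.

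Doxycycline in the BMI1-shRNA line lowered 3 of the 40 genes, averaged over 24, 32 and 48 h: the kinesin KIF4A, the kinase AURKA and the kinesin KIF2C. A gene was said to rise or fall where its adjusted p was under 0.05 in limma, with Benjamini-Hochberg adjustment over all 14704 genes. Those 3 are 7.5% of the genes, beside 8.3% of all genes tested, of which 3.93% rose and 4.37% fell, so the share is near that of all genes. Among the 40, 20 differences were positive and 20 negative, with a median of -0.001 log2 beside 0.019 over all genes. All log2 changes here are of signal plus 5.4, which understates changes of dim genes. At an unadjusted p under 0.05, 6 of the 40 were higher and 8 lower. Counts at an unadjusted p, here and below, have no share of all genes beside them and do not count as passing. The count of 3 was 5 without dosed 32 h replicate 3 and 6 without undosed 48 h replicate 3, in which CENPA, FOXM1, HMMR or CCNB1 also passed.

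KIF4A, a chromosome-bound kinesin that shapes the anaphase midzone, read 578.1, 637.6 and 599.5 at 24 h, 676.0, 620.5 and 652.2 at 32 h and 500.8, 475.4 and 548.2 at 48 h in dosed BMI1-shRNA cells. Undosed cells of that line read 837.7, 832.0 and 832.4 at 24 h, 812.6, 815.8 and 791.2 at 32 h and 790.1, 818.1 and 721.1 at 48 h. All 9 dosed arrays lay below all 9 undosed ones, and also below the 0 h arrays of the line, at 749.4, 776.2 and 838.6. In the control-shRNA line KIF4A averaged 908 ± 72.7 with and 901 ± 52.7 without doxycycline (SD, n = 9 each), and the 2 sets overlapped. The change was -0.46 ± 0.04 log2 (SE), or 1.38-fold lower, with an adjusted p of 1.36e-11 (limma). It was -0.46, -0.31 and -0.61 at 24, 32 and 48 h, and at 32 h it missed the threshold without dosed replicate 2 (adjusted p = 0.0512 in limma) and with only the compared groups in the fit (0.0543). KIF4A had 1 probe set, and probes of it may also detect the near-identical KIF4B.

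AURKA, the kinase that matures centrosomes and builds the spindle, read 792.2, 792.0 and 734.5 at 24 h, 800.8, 741.6 and 798.1 at 32 h and 585.9, 660.2 and 618.5 at 48 h with doxycycline. Without it the values were 1013.7, 961.9 and 867.5 at 24 h, 1005.7, 968.0 and 954.3 at 32 h and 847.7, 938.6 and 849.8 at 48 h. All 9 dosed arrays were again below the 9 undosed ones, by -0.37 ± 0.04 log2, or 1.29-fold (adjusted p = 4.65e-10, limma). The 0 h arrays read 812.1, 759.3 and 757.6, so the dosed values at 24 and 32 h lay near the level at 0 h and those at 48 h below it. A second AURKA probe set fell by 0.34 log2 (adjusted p = 3.08e-05 in limma over all probe sets), and the dimmest one differed by -0.65 log2 without passing (adjusted p = 0.072).

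KIF2C, a kinesin that takes microtubules apart at the kinetochore, read 1244.3, 1177.8 and 1138.9 at 24 h, 1271.9, 1211.2 and 1208.8 at 32 h and 1175.4, 1260.7 and 1210.9 at 48 h with doxycycline. Without it the values were 1483.0, 1379.5 and 1375.3 at 24 h, 1571.2, 1513.2 and 1446.0 at 32 h and 1354.5, 1402.3 and 1337.1 at 48 h. The 0 h arrays of the line read 1255.5, 1319.0 and 1227.5, below every later undosed value and near or above the dosed ones. The 9 dosed arrays did not overlap the 9 undosed ones of 24 to 48 h. They lay close to the control-shRNA line, whose medians were 1178 with and 1206 without doxycycline. The change was -0.24 ± 0.03 log2, or 1.18-fold lower (adjusted p = 2.54e-07, limma), and a second probe set fell by 0.24 log2 as well. KIF4A, AURKA and KIF2C were the only ones of the 40 whose dosed arrays all lay on one side of the undosed ones, beside 1.25% of all genes lower and 0.218% higher in that way. In the mean over the 3 times each stayed past the threshold under all 11 other ways of processing tried and without any single array.

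**Figure D1:**
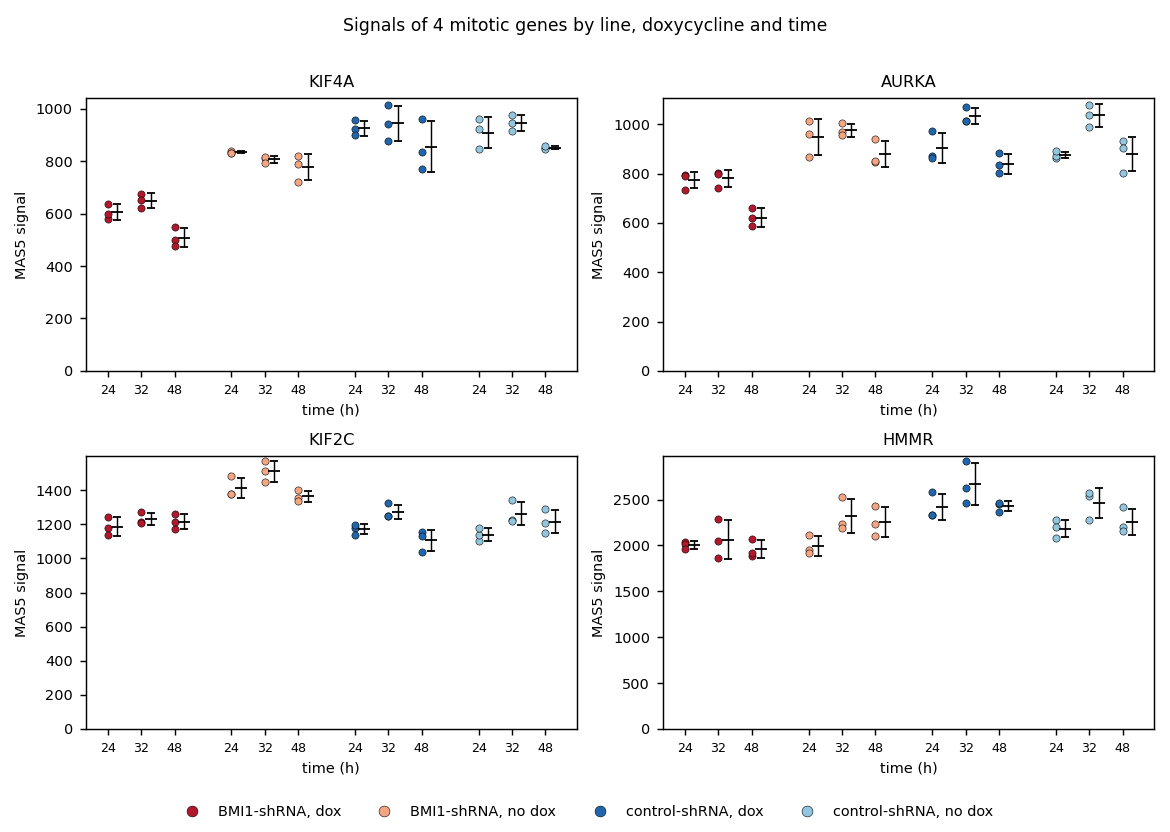
MAS5 signal of KIF4A, AURKA, KIF2C and HMMR on each array (points) with the group mean and SD, by line, doxycycline and hours. For KIF4A, AURKA and KIF2C the 9 dosed BMI1-shRNA arrays sit below the 9 undosed ones; for HMMR they overlap.

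At single times the numbers were as small. At 24 h KIF4A, AURKA and KIF2C fell, beside 1.08% of all genes, and at 32 h KIF4A, AURKA and KIF2C fell again, beside 1.67%. At 48 h KIF4A and AURKA fell and FOXM1 rose, beside 5.35%. FOXM1, the transcription factor that drives many of these genes, read 809.0, 757.6 and 722.2 in dosed cells at 48 h, and 539.2, 651.6 and 704.7 in undosed cells. The sets did not overlap, and the change was 0.28 ± 0.08 log2 (adjusted p = 0.0284, limma). It was lost without dosed replicate 1 (adjusted p = 0.154), dosed replicate 2 (0.0684) or undosed replicate 1 (0.342), and with only the compared groups in the fit (0.187). AURKA and KIF2C at 24 h were lost without dosed replicate 3 (0.0661 and 0.0539) or undosed replicate 1 (0.0857 and 0.0651). Both were also lost with only the compared groups in the fit (0.079 for each). As the mean of its probe sets AURKA at 24 h differed by only -0.14 log2 (adjusted p = 0.773, limma).

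The other members did not pass, most with small differences. The centromeric histone CENPA was 0.18 ± 0.06 log2 higher (adjusted p = 0.0659), the kinase AURKB 0.16 ± 0.06 higher (0.109), and the cytokinesis kinesin KIF23 differed by -0.15 ± 0.06 (0.133). The brighter CENPA probe set, which is also annotated to SLC35F6 and was not used, differed by 0.07. For the core of the mitotic switch the differences were -0.09 ± 0.03 for CCNB1, which codes for cyclin B, and -0.11 ± 0.11 for CDK1, whose error was large. PLK1 differed by -0.02 ± 0.05, CDC20 by -0.0028 ± 0.062, TOP2A, the topoisomerase that untangles chromosomes, by -0.01 ± 0.03 and BUB3 by -0.03 ± 0.05 log2. The median SE over the 40 was 0.042, so a missed threshold does not show that these genes kept their level. By role, 2 of 6 kinesins and 1 of 6 kinases and survivin fell; none of the 8 cyclin and CDK genes, 7 checkpoint genes, 4 centromere genes or 9 spindle genes passed in either direction. From 24 to 48 h within dosed BMI1-shRNA cells, AURKA fell by 0.31 and KIF4A by 0.25 log2, and CKS2, a partner of CDK1, rose by 0.22, beside 2.15% of all genes. That count was 1 without dosed 24 h replicate 2 or 3 or dosed 48 h replicate 2. The doxycycline effect itself passed a test of change between 24 and 48 h for none of the 40 (limma), beside 0.49% of all genes. At an unadjusted p under 0.05 there were 5.

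In the control-shRNA line doxycycline changed none of the 40 over the 3 times, beside 0.129% of all genes, with 2 higher and 1 lower at an unadjusted p under 0.05 (limma). None changed at 24, 32 or 48 h either, beside 0.0408%, 0.034% and 0.0476%; at an unadjusted p under 0.05 there were 2, 2 and 1. Over the 3 times KIF4A, AURKA and KIF2C differed by 0.01 ± 0.04, -0.01 ± 0.04 and -0.03 ± 0.03 log2.

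The difference between the doxycycline effects of the 2 lines was tested directly, and 4 of the 40 passed, all lower, beside 2.58% of all genes. KIF4A differed by -0.47 ± 0.06 log2 (adjusted p = 9.89e-08), AURKA by -0.36 ± 0.05 (3.76e-06), HMMR by -0.24 ± 0.06 (0.0138) and KIF2C by -0.21 ± 0.04 (0.0015), by limma. HMMR codes for a spindle protein that works beside AURKA. It read 2034.1, 2021.5 and 1959.2 at 24 h, 2045.2, 1859.6 and 2285.0 at 32 h and 1888.7, 1922.9 and 2070.3 at 48 h in dosed BMI1-shRNA cells. Undosed cells read 1946.2, 2118.4 and 1921.4 at 24 h, 2534.0, 2239.8 and 2186.0 at 32 h and 2431.8, 2231.2 and 2104.6 at 48 h. These sets overlapped, and neither line passed alone: the effect was -0.12 ± 0.04 in the BMI1-shRNA line (adjusted p = 0.0816) and 0.12 ± 0.04 in the control-shRNA line (0.551). The control-shRNA line averaged 2504 ± 186 with and 2302 ± 171 without doxycycline (SD, n = 9 each). A second HMMR probe set differed by -0.03 log2 and did not pass, so the HMMR result rests on 1 of its probe sets.

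At single times the difference passed for KIF4A at 24 h, beside 0.333% of all genes, for KIF2C at 32 h, beside 0.748%, and for KIF4A and AURKA at 48 h, beside 2.12%. KIF2C at 32 h, at -0.31 ± 0.07 log2 (adjusted p = 0.0273, limma), was lost without any one of 7 of the 12 arrays, at 0.0531 to 0.0968. At 48 h KIF2C differed by only -0.03 ± 0.07 log2. At 24 h the count of 1 was 2 without undosed BMI1-shRNA replicate 3, when AURKA also passed.

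**Figure D2:**
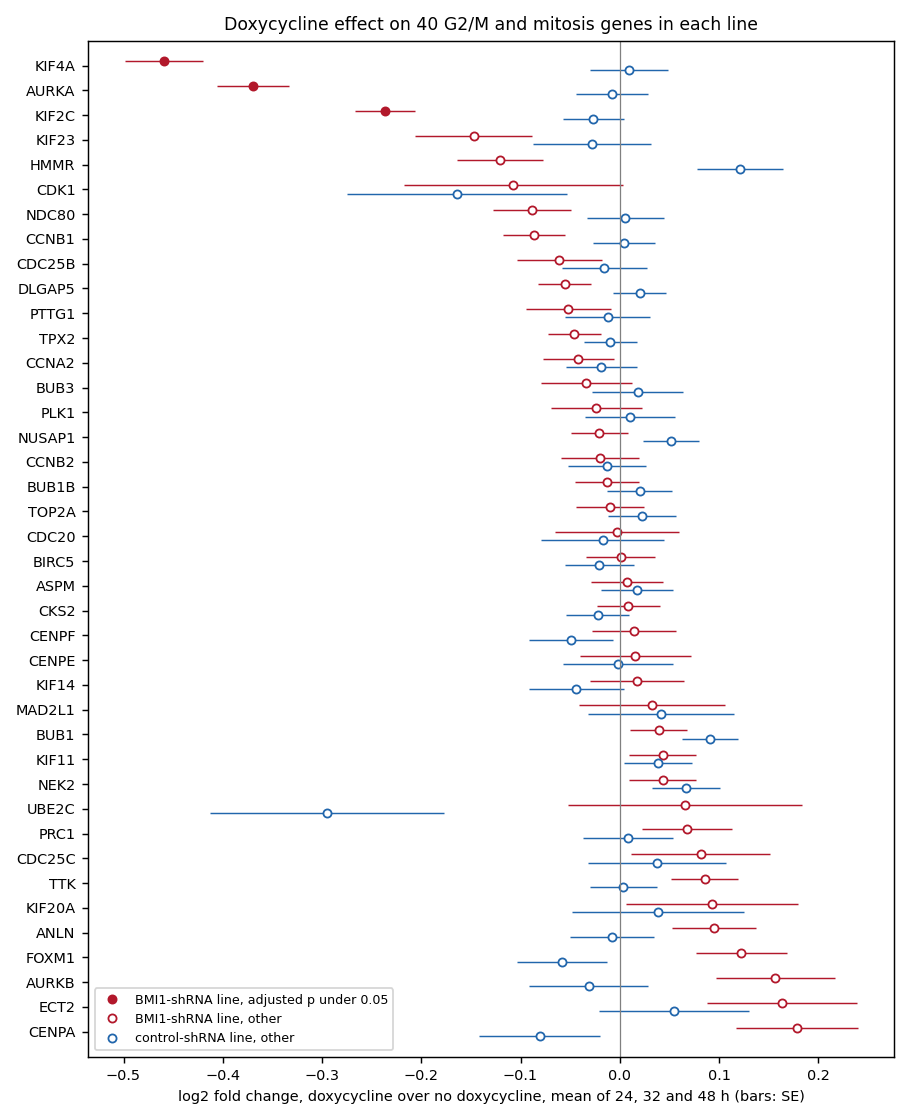
Log2 change with doxycycline averaged over 24, 32 and 48 h for each of the 40 genes, in the BMI1-shRNA line and in the control-shRNA line, with SE bars. KIF4A, AURKA and KIF2C stand to the left in the BMI1-shRNA line at -0.46, -0.37 and -0.24, and at 0.01, -0.01 and -0.03 in the control-shRNA line.

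A further 128 genes outside the 40, in 6 lists, gave 124 tested genes, called further mitosis genes below. They include a list of DREAM and MuvB genes, which are regulators of transcription, and CDC25A, which the G1/S list also holds. In the BMI1-shRNA line 8 of the 124 rose with doxycycline and 11 fell, beside 3.93% and 4.37% of all genes. Their median was 0.004 log2. The mitotic kinase gene PBK fell by 0.42 ± 0.03 log2, ANAPC13, a subunit of the anaphase-promoting complex, by 0.42 ± 0.04, the cohesin regulator PDS5A by 0.39 ± 0.04 and SKA2, of the microtubule-binding SKA complex, by 0.37 ± 0.04. These 4 fell by about as much as KIF4A and AURKA, and each also passed in the difference between lines. The kinase and phosphatase list had 4 of 17 lower, PPP2R2A and CDKN3 among them, and none higher, beside the same shares of all genes. In the list of DREAM and MuvB genes, which regulate mitotic transcription, E2F5 rose by 0.22 ± 0.05 and LIN52 by 0.22 ± 0.06. RBBP4 of that list fell by 0.14 ± 0.03. In the difference between lines RBBP4 passed, at -0.16 ± 0.05, and E2F5 and LIN52 did not. Of 39 G1/S and replication genes 2 rose and 4 fell, again beside 3.93% and 4.37% of all genes. Those that fell included PCNA, the replication clamp, by 0.39 ± 0.04, E2F1 by 0.45 ± 0.12 and DSCC1 by 0.21 ± 0.04. None of the 124 or the 39 passed in the control-shRNA line, where 0.129% of all genes did (limma).

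More of the 40 passed for time in culture than for the hairpin. Over each array the median of the 40 log2 signals, each relative to its own mean over 42 arrays, was -0.14 ± 0.04, -0.02 ± 0.03, 0.06 ± 0.05 and -0.01 ± 0.01 at 0, 24, 32 and 48 h in undosed BMI1-shRNA cells (SD, n = 3 each). In undosed control-shRNA cells it was -0.15 ± 0.02, -0.0008 ± 0.0125, 0.15 ± 0.05 and 0.03 ± 0.07. In both lines the level was lowest at 0 h and highest at 32 h. Dosed cells read -0.05 ± 0.04, 0.03 ± 0.01 and -0.04 ± 0.04 at 24, 32 and 48 h in the BMI1-shRNA line and 0.02 ± 0.01, 0.13 ± 0.06 and 0.0002 ± 0.0325 in the control-shRNA line.

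**Figure D3:**
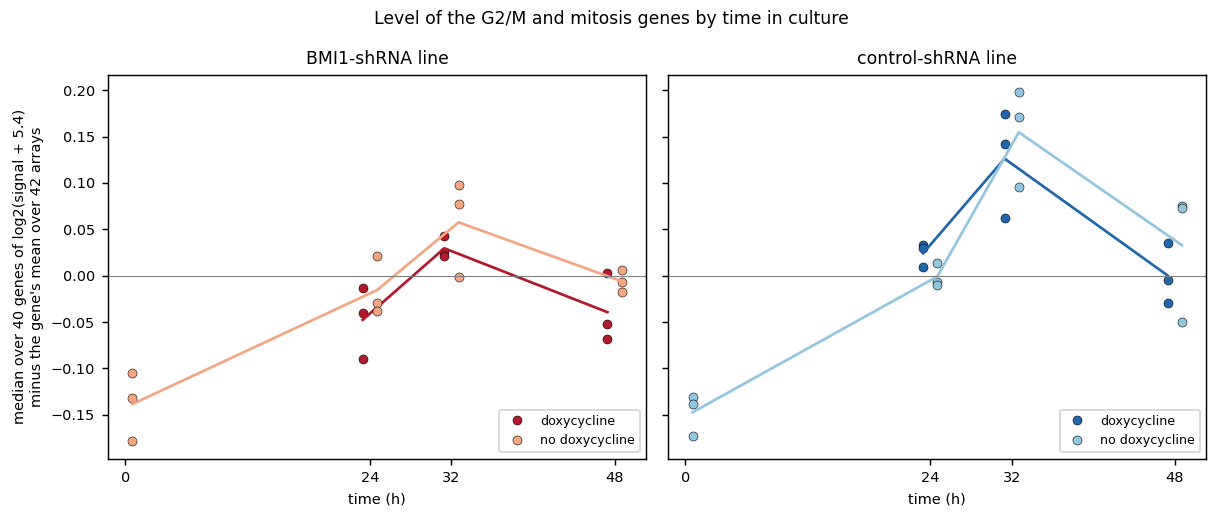
Median over the 40 genes of the log2 deviation of each gene from its mean over 42 arrays, for each array (points), against hours in culture, by line, with and without doxycycline. The 6 arrays at 0 h lie between -0.18 and -0.11, and the mean of each line is highest at 32 h with and without doxycycline.

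In undosed BMI1-shRNA cells 11 of the 40 were higher at 32 than at 0 h, beside 0.462% of all genes, and none was lower. The 32 h steps were added after the levels at 32 h had been seen. The median of the 40 was 0.21 log2, beside -0.004 over all genes, 39 were positive, and for 31 all 3 arrays at 32 h exceeded all 3 at 0 h, beside 7% of all genes. CDC25C, a phosphatase that activates CDK1, rose by 0.51 ± 0.12, the spindle pole gene ASPM by 0.42 ± 0.06, HMMR by 0.36 ± 0.08 and AURKA by 0.33 ± 0.06. The count of 11 was 4, 4 and 5 without 0 h replicate 1, 2 or 3, and 3 and 5 without 32 h replicate 1 or 3. It was 3 with only the compared groups in the fit and 18 under quantile normalization. In undosed control-shRNA cells the same step gave 23 genes higher and none lower, beside 1.26% of all genes. There 38 were positive, with a median of 0.28 log2 beside -0.03 over all genes, and 34 had no overlap, beside 8.02% of all genes. The kinetochore motor CENPE rose by 0.61 ± 0.10, KIF20A, a kinesin of cytokinesis, by 0.59 ± 0.15, ASPM by 0.52 ± 0.06, KIF23 by 0.48 ± 0.10 and PLK1 by 0.47 ± 0.08.

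By 48 h fewer were above 0 h. In BMI1-shRNA cells 7 rose between 0 and 48 h and none fell, beside 2.26% of all genes higher: CDC25C by 0.59 ± 0.12, ASPM by 0.48 ± 0.06, CENPF by 0.38 ± 0.07, HMMR by 0.32 ± 0.08, CENPE by 0.32 ± 0.10, TOP2A by 0.24 ± 0.06 and CKS2 by 0.20 ± 0.06. Without 0 h replicate 2 the count was 3. Both BMI1-shRNA steps from 0 h rest on the arrays whose labels disagree. The median of the 40 was 0.13 log2, beside 0.03 over all genes.

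In control-shRNA cells 13 rose between 0 and 48 h and none fell, beside 2.48% of all genes higher. The median was 0.14 log2, beside 0.01 over all genes, and 35 of 40 were positive. Those that rose were CDC25C by 0.44 ± 0.12, ASPM by 0.43 ± 0.06, CENPE by 0.37 ± 0.10, CENPA by 0.36 ± 0.11 and KIF14, CENPF, TPX2, TOP2A, NEK2, DLGAP5, TTK, NUSAP1 and BUB1 by 0.17 to 0.29. The 13 included 5 of the 9 spindle genes and 3 of the 4 centromere genes, but 1 of 6 kinesins and 1 of 7 checkpoint genes. The count was 8, 7 and 5 without 0 h replicate 1, 2 or 3, and 5 without 48 h replicate 3. KIF20A, at 0.41 ± 0.15, did not pass (adjusted p = 0.104, limma). The lowest differences were -0.07 ± 0.13 for MAD2L1, -0.05 ± 0.06 for BIRC5, which codes for survivin, -0.04 ± 0.08 for BUB3 and -0.03 ± 0.19 for CDK1, none of which passed.

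ASPM read 1267.2, 1223.3 and 1178.2 at 0 h, 1569.4, 1647.7 and 1572.2 at 24 h, 1668.4, 1568.9 and 1685.1 at 32 h and 1658.5, 1688.5 and 1781.4 at 48 h in undosed BMI1-shRNA cells. In undosed control-shRNA cells it read 1699.0, 1631.0 and 1590.9 at 0 h, 2308.5, 2066.7 and 2127.5 at 24 h, 2207.2, 2212.5 and 2643.4 at 32 h and 2123.6, 2295.3 and 2198.4 at 48 h. Every later array exceeded every 0 h array of its own line, and in the control-shRNA line the later times overlapped each other. CENPE read 218.9, 232.9 and 204.1 at 0 h, 257.2, 262.1 and 265.1 at 24 h, 354.7, 318.8 and 336.2 at 32 h and 268.8, 275.6 and 306.2 at 48 h in control-shRNA cells, with its highest arrays at 32 h. PLK1 read 819.7, 897.0 and 821.6 at 0 h, 935.3, 943.7 and 930.5 at 24 h, 1196.1, 1081.9 and 1249.6 at 32 h and 1008.0, 800.7 and 931.9 at 48 h, again highest at 32 h. CDC25C read 240.9, 243.1 and 201.8 at 48 h and 148.3, 152.8 and 146.1 at 0 h in BMI1-shRNA cells. In control-shRNA cells it read 219.3, 229.2 and 234.6 at 48 h and 143.2, 192.8 and 166.2 at 0 h, and in both lines the 2 times did not overlap.

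CDC25C, CENPE, CENPF, TOP2A and ASPM passed in both lines, and the lines share no arrays in these comparisons. They are 71.4% of the 7 in the BMI1-shRNA line and 38.5% of the 13 in the control-shRNA line. The matching shares over all genes that passed are not given here. ASPM kept both calls under every setting tried and without any single array. CENPE in the BMI1-shRNA line missed the threshold under 6 of 10 other settings (adjusted p = 0.0518 to 0.101, limma) and without any one of 5 of the 6 arrays (0.084 to 0.198). In the control-shRNA line CDC25C and CENPF each missed it under 2 of 11 other settings and without any one of 4 arrays. TOP2A there missed it under 2 settings and without either of 2 arrays. As means of their probe sets, CDC25C and CENPF also missed it in the BMI1-shRNA line (adjusted p = 0.25 and 0.165, limma). A direct test of the difference between lines passed for none of the 40, beside 0.143% of all genes (limma). At an unadjusted p under 0.05 there were 2. For the step between 24 and 48 h that test also passed for none, beside 0% of all genes. There too 2 had an unadjusted p under 0.05.

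Part of the rise was present by 24 h, when the median of the 40 was 0.12 log2 above 0 h in BMI1-shRNA and 0.15 in control-shRNA cells. By then AURKA, PLK1, CENPF and ASPM had risen in BMI1-shRNA cells, beside 0.626% of all genes, and TPX2, NUSAP1, DLGAP5 and ASPM in control-shRNA cells, beside 0.666%. Those counts of 4 were 1 to 4 in the BMI1-shRNA line and 1 to 3 in the control-shRNA line when single arrays were left out. Between 24 and 32 h none passed in control-shRNA cells, beside 0% of all genes (limma). There 37 of 40 differences were positive, while the median over all genes was -0.006 log2. At an unadjusted p under 0.05, 20 were higher. From 32 to 48 h 36 of 40 were negative in those cells, while the median over all genes was 0.024 log2. PLK1 fell by 0.37 ± 0.08 log2 (adjusted p = 0.026, limma), the only one to pass, beside 0.102% of all genes. That call was lost without 32 h replicate 1 or 3, or 48 h replicate 2 or 3. Between 24 and 48 h none passed in either line (limma), beside 0.952% of all genes in BMI1-shRNA and 0.843% in control-shRNA cells. At an unadjusted p under 0.05 there were 6 in BMI1-shRNA and 2 in control-shRNA cells. Between 32 and 48 h KIF4A and AURKA fell by 0.35 and 0.33 log2 in dosed BMI1-shRNA cells, beside 0.428%, and PLK1 and AURKA fell by 0.41 and 0.30 in dosed control-shRNA cells, beside 0.0748%. The count in dosed control-shRNA cells was 0 without dosed 32 h replicate 1 or 2 or dosed 48 h replicate 2, 1 without dosed 48 h replicate 3 and 4 without dosed 32 h replicate 3. That in dosed BMI1-shRNA cells was 1 without dosed 48 h replicate 1.

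Of the 124 further mitosis genes tested, 4 were higher and 2 lower at 48 than at 0 h in BMI1-shRNA cells, with a median of -0.01 log2, beside 2.26% of all genes higher and 2.21% lower. In control-shRNA cells 4 were higher and 7 lower, with a median of 0.01, beside 2.48% and 2.56%. At 32 h against 0 h 3 rose and none fell in BMI1-shRNA cells, with a median of 0.03, and 11 rose and 1 fell in control-shRNA cells, with a median of 0.06, beside 0.462% and 1.26% of all genes higher. In that step the list of further kinesin, spindle and cytokinesis genes had 22 of 26 positive and 3 that rose in BMI1-shRNA cells, and 26 of 26 positive and 7 that rose in control-shRNA cells. The 7 included FAM83D, a spindle adaptor, by 0.64 ± 0.06, the spindle gene PSRC1 by 0.51 ± 0.10, the proliferation marker MKI67 by 0.45 ± 0.10 and CDCA2 by 0.36 ± 0.06. In the 28 further kinetochore genes none passed in either line (limma), and 13 were positive in BMI1-shRNA and 18 in control-shRNA cells. Of the 39 G1/S and replication genes none rose and 4 fell at 32 h in each line, beside 0.49% of all genes lower in BMI1-shRNA and 1.26% in control-shRNA cells. CCNE2, a cyclin of S phase entry, fell by 0.65 ± 0.10 log2 in BMI1-shRNA and by 0.51 ± 0.10 in control-shRNA cells. At 48 h 7 of the 39 were lower in BMI1-shRNA cells and none higher; in control-shRNA cells 7 were lower and 1 higher.

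The 2 undosed lines differed in most of the 40 genes. Averaged over 24, 32 and 48 h, 28 passed, or 70%, beside 43.9% of all genes: 11 were higher in the BMI1-shRNA line, beside 21.9%, and 17 lower, beside 22.1%. The median difference was -0.06 log2, beside 0.01 over all genes. Of the 28, 5 exceeded 0.5 log2 in size and 14 were under 0.25. The sign was the same at 0, 24, 32 and 48 h for 26 of the 28. Because the 28 were picked on the mean of 24, 32 and 48 h, agreement at those times partly follows from that choice. No share over all genes is given for it. At 0 h, where the label of the BMI1-shRNA arrays is in doubt, 21 passed, beside 28.3% of all genes, and all 21 were among the 28. That overlap also has no share over all genes beside it.

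UBE2C, the ubiquitin-conjugating enzyme of the anaphase-promoting complex, differed by far more than the others. That result rests on its only probe set. It read 319.2 to 398.7 with a median of 356.3 in the 9 undosed BMI1-shRNA arrays, and 27.9 to 52.3 with a median of 42.8 in the 9 undosed control-shRNA arrays. The difference was 2.98 ± 0.12 log2, or 7.89-fold (adjusted p = 1.14e-22, limma), and the control-shRNA values were not far above the array medians of 16 to 22.5. CDC25B, a phosphatase that activates CDK1, read 899.7 to 1064.8 (median 1027.4) in the BMI1-shRNA line and 515.5 to 683.2 (median 610.1) in the control-shRNA line. FOXM1 read 539.2 to 743.6 (median 704.7) in the BMI1-shRNA line and 371.4 to 497.4 (median 432.6) in the control-shRNA line. The checkpoint kinase BUB1 read 3166.7 to 3733.8 (median 3379.5) in the BMI1-shRNA line and 2019.9 to 2435.3 (median 2188.3) in the control-shRNA line. None of these 4 genes overlapped between the lines. Their differences were 0.73 ± 0.04 for CDC25B, 0.68 ± 0.05 for FOXM1 and 0.61 ± 0.03 log2 for BUB1. NEK2, a centrosome kinase, was 0.47 ± 0.03 higher, TPX2, which activates AURKA, 0.46 ± 0.03 and KIF2C 0.24 ± 0.03. CDC20, TTK, NDC80 and CCNB1 were 0.11 to 0.17 higher, and CDC20 was lost without BMI1-shRNA 32 h replicate 1 (adjusted p = 0.0849), control-shRNA 32 h replicate 1 (0.0516) or 48 h replicate 2 (0.0724).

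Among the genes lower in the BMI1-shRNA line, CDK1 read 1462 to 2199.2 (median 2114.3) there and 2398.4 to 3107.2 (median 2736) in the control-shRNA line. ASPM read 1568.9 to 1781.4 (median 1658.5) in the BMI1-shRNA line and 2066.7 to 2643.4 (median 2207.2) in the control-shRNA line, and neither gene overlapped. CCNA2, cyclin A, read 823.5 to 1073 (median 964) in the BMI1-shRNA line and 1071.8 to 1413.2 (median 1252.4) in the control-shRNA line, and the highest of the BMI1-shRNA arrays just exceeded the lowest control-shRNA one. CENPE read 197.1 to 242.7 (median 222.4) in the BMI1-shRNA line and 257.2 to 354.7 (median 275.6) in the control-shRNA line. The differences were -0.52 ± 0.11 for CDK1 (adjusted p = 0.000152), -0.44 ± 0.04 for ASPM, -0.43 ± 0.04 for CCNA2 and -0.41 ± 0.06 log2 for CENPE (limma). The size for CDK1 depended on the probe set: others differed by -0.23 ± 0.04 and -0.27 ± 0.03, and the dimmest by 0.14 ± 0.20. A further 13 genes passed with differences from -0.36 to -0.08, among them the checkpoint genes MAD2L1, BUB3 and BUB1B, ANLN and ECT2 of cytokinesis, and KIF4A at -0.16 ± 0.04. PRC1 was lost without BMI1-shRNA 32 h replicate 2 (adjusted p = 0.0711). By role, 3 of 8 cyclin and CDK genes were higher and 2 lower, 3 of 7 checkpoint and anaphase genes higher and 4 lower, and 2 of 6 kinases and survivin higher and 0 lower. Of the 6 kinesins 1 was higher and 3 lower, of the 4 centromere genes 1 higher and 2 lower, and of the 9 spindle genes 1 higher and 6 lower. PLK1, AURKA, AURKB and TOP2A did not pass, with differences from -0.07 to 0.07. In 12 of the 28 the 9 arrays of each line did not overlap, 6 higher and 6 lower, beside 8.58% and 7.56% of all genes.

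**Figure D4:**
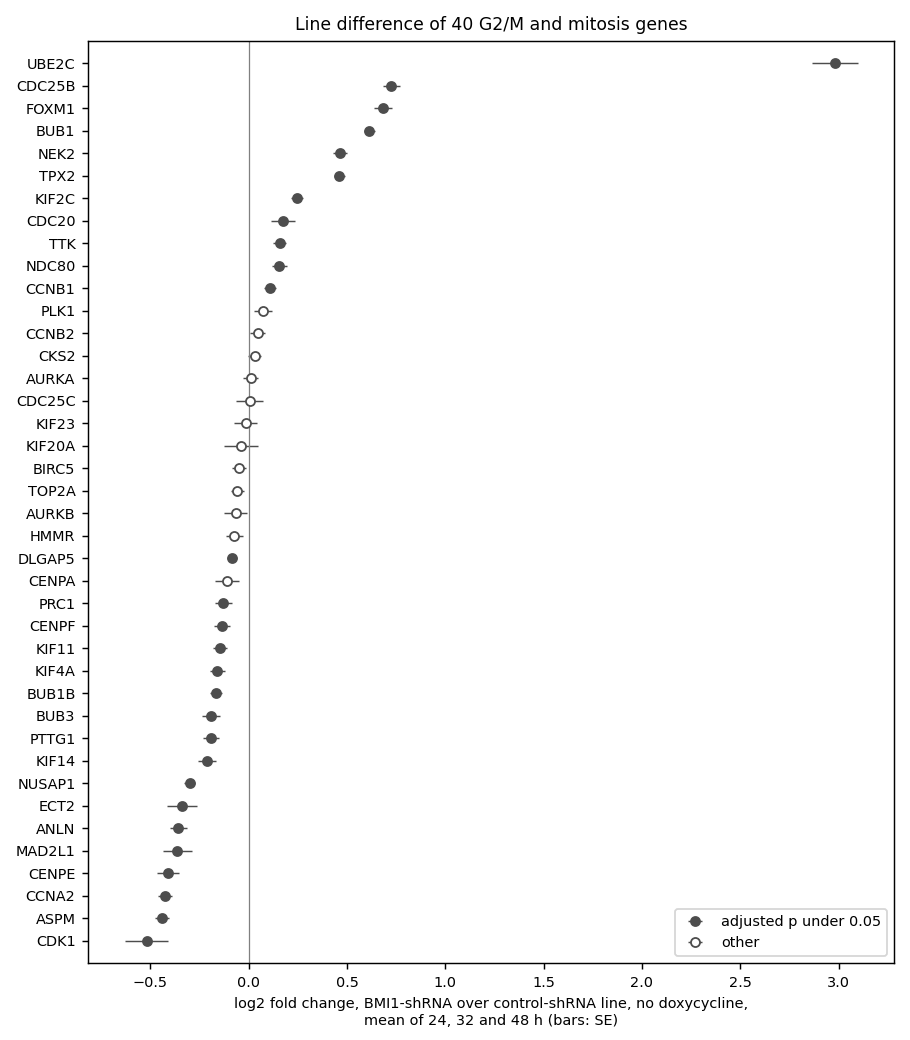
Log2 difference between the undosed BMI1-shRNA and control-shRNA lines, averaged over 24, 32 and 48 h, for each of the 40 genes with SE bars. UBE2C stands apart at 2.98, while the other 39 lie between -0.52 and 0.73.

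**Figure D5:**
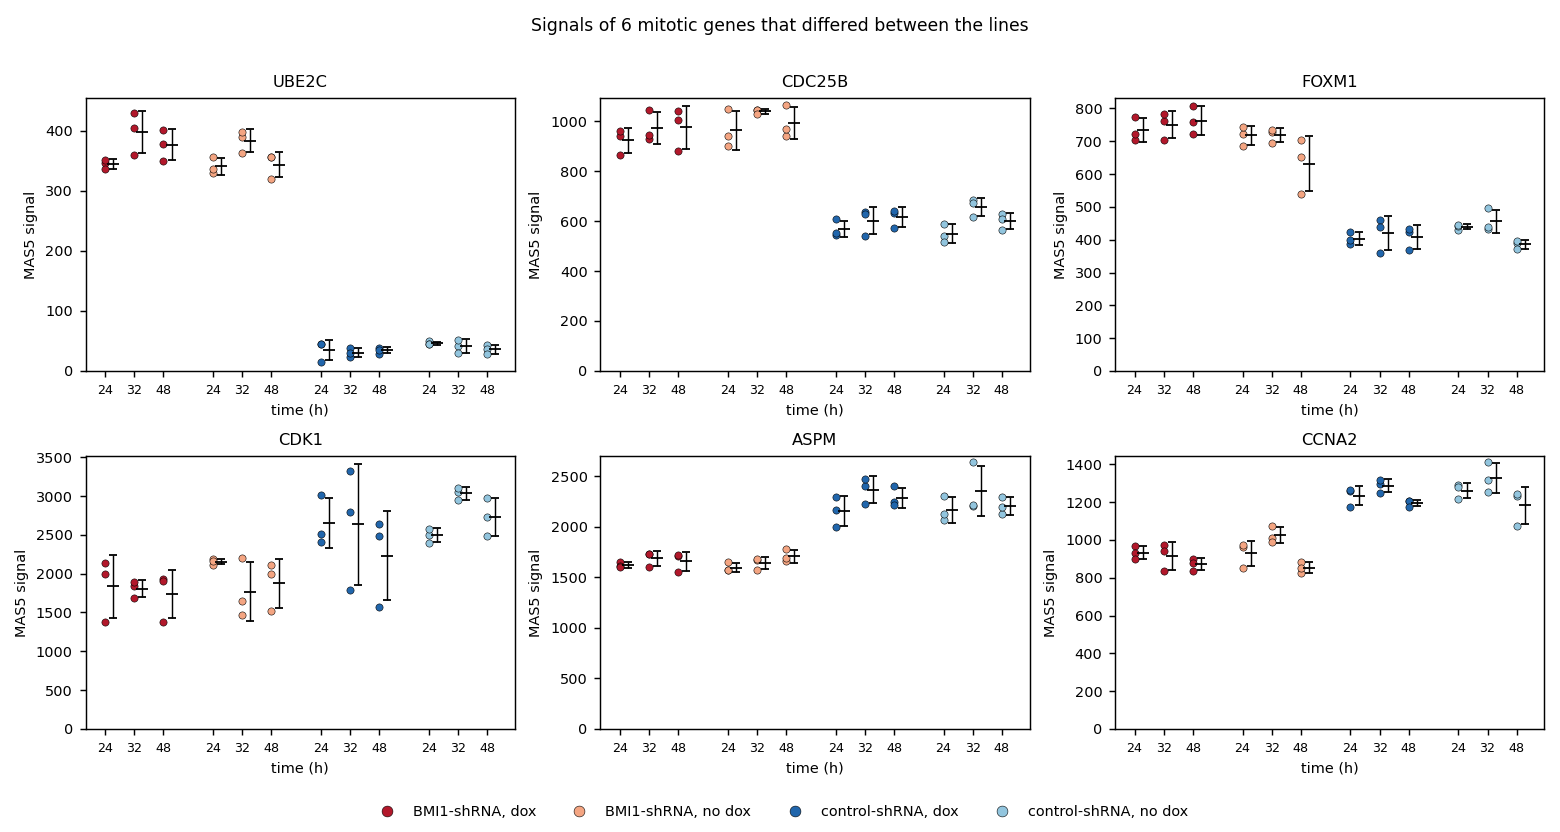
MAS5 signal on each array (points) with group mean and SD for UBE2C, CDC25B, FOXM1, CDK1, ASPM and CCNA2, by line, doxycycline and hours. UBE2C, CDC25B and FOXM1 are higher and CDK1, ASPM and CCNA2 lower in the BMI1-shRNA line, with 1 overlapping pair of undosed arrays for CCNA2.

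Several of these genes lay among genome neighbours that differed in the same direction. Of the 10 tested genes on each side of FOXM1, on chromosome 12, 14 of 20 were also higher in the BMI1-shRNA line, with a median of 0.84 log2. Over all genes 21.9% were higher and 22.1% lower. Around CDC25B, on chromosome 20, 14 of 20 were higher with a median of 0.57, around TPX2, also on chromosome 20, 9 with a median of 0.37, and around NDC80, on chromosome 18, 14 of 19 with a median of 0.36. Around ASPM and KIF14, both on chromosome 1, 14 and 10 of 20 were lower, with medians of -0.30 and -0.29. ASPM and KIF14 lie close together there, so some neighbours may be counted for both. Around CENPF, also on chromosome 1, 11 of 20 were lower, with a median of -0.155. The median over all tested genes was 0.31 on chromosome 20, 0.25 on chromosome 18, 0.02 on chromosome 12 and -0.004 on chromosome 1. The surroundings of TPX2 were thus close to the level of its whole chromosome. For UBE2C, on chromosome 20, 4 of 20 neighbours were higher and the median was 0.16, far under its own difference. BUB1, NEK2 and CDK1 had no such surroundings, with medians of -0.07, -0.13 and -0.02. The order of genes is that of RefSeq, GRCh38.p14, and neighbours share their source, so these counts are a description. Copy number was not measured, and its part was not tested.

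The 124 further mitosis genes also differed between the lines, with a median of -0.10 log2. Of them 23 were higher and 59 lower in the BMI1-shRNA line, beside 21.9% and 22.1% of all genes. NCAPD2, a condensin subunit, was 1.03 ± 0.04 log2 higher and its counterpart in the other condensin, NCAPD3, differed by -0.66 ± 0.04. In the DREAM and MuvB list E2F5 was 0.73 ± 0.05 higher and TFDP2, a dimer partner of E2F proteins, differed by -1.40 ± 0.07. CDCA3 was 0.71 ± 0.05 higher and NUF2, which binds NDC80, differed by -0.59 ± 0.03. Of the 39 G1/S and replication genes 11 were higher and 9 lower, beside the same shares of all genes.

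Where a member that passed had a further probe set past the filter, all its probe sets mostly shared 1 sign. This held for 2 of 2 genes for doxycycline in the BMI1-shRNA line, 3 of 3 for the difference between lines in that effect, 4 of 5 for 48 h against 0 h in the BMI1-shRNA line and 7 of 8 in the control-shRNA line. CDC25C and CENPF were the exceptions. For the difference between undosed lines it held for 12 of 14, all but CCNB1 and CDK1, and no further probe set passed in the opposite direction.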

How the data were processed

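Per the labels, each of the 42 arrays held RNA of 1 sample, extracted with RNeasy and labelled as biotin cRNA. The deposited values are linear MAS5 signal intensities per probe set, 1 per array and not on a log2 scale. Per the submitters' processing notes they were made with MAS5. The version of MAS5 is not given in the sources used here, and neither are detection calls or scan dates. That every array has 1 trimmed mean (2% left out at each end) was read from the values. No column stood outside the mapped samples. For arrays, precision is limited by their number, 3 per group.

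Of 54675 probe sets, 41097 had 1 gene symbol in GEO's platform annotation, 1801 several and 11721 none, and 62 were controls, which were left out. Symbols were updated through Entrez IDs to RefSeq. A probe set was kept if at least 3 of 42 arrays reached their array's median, which left 35232, of which 28474 had 1 symbol. The brightest per gene gave 14704 genes. Then 5.4, the 25th percentile of all values, was added before log2. limma 3.58.1 in R 4.3.3 fitted 14 group means with an intensity trend (28 residual and 8.62 prior degrees of freedom). Its moderated tests, 2-sided, covered 39 comparisons, 10 of them with 32 h steps added after the data were seen. They were adjusted by Benjamini-Hochberg over all genes within each comparison. The script was checked on simulated data. Correlations over all genes were 0.979 to 0.985 within groups and 0.958 to 0.967 between lines. Replicate numbers did not pair the samples: the mean correlation of deviations was 0.002 for equal and -0.001 for unequal numbers, and 9 of 273 equal-numbered pairs exceeded 0.1.

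The 40 genes, the further gene lists and the marker lists were chosen with earlier results of these data known. Per-array values are given for genes that passed with the hairpin, for those at either end of the time and line differences, and for a fixed set of core genes. Alternatives were other added constants, filters, quantile normalization, averaging the probe sets of each gene, a fit on every probe set, no intensity trend, only the groups compared, a replicate block and leaving out each array.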

Additional observations from a re-analysis of the deposited data

Results flagged for a closer look

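Each result here is a difference between the 2 lines in the effect of doxycycline, tested by an interaction contrast in limma (BMI1-shRNA line minus control-shRNA line, log2 ± SE, with the adjusted p over all genes). Over 24, 32 and 48 h KIF4A differed by -0.47 ± 0.06 (9.89e-08), AURKA by -0.36 ± 0.05 (3.76e-06), HMMR by -0.24 ± 0.06 (0.0138) and KIF2C by -0.21 ± 0.04 (0.0015). At 24 h KIF4A differed by -0.49 ± 0.1 (0.00559), and at 32 h KIF2C by -0.31 ± 0.07 (0.0273). At 48 h KIF4A differed by -0.61 ± 0.1 (4.52e-05) and AURKA by -0.43 ± 0.09 (0.00224). For KIF4A, AURKA and KIF2C the BMI1-shRNA line carried the mean difference, with a fall there and values near 0 in the control-shRNA line. At 48 h, though, KIF2C differed between the lines by -0.03 ± 0.07 and did not pass. It then averaged 1107 with and 1216 without doxycycline in the control-shRNA line, and 1216 with and 1365 without in the BMI1-shRNA line. For HMMR about equal parts came from each line, -0.12 in the BMI1-shRNA line and 0.12 in the control-shRNA line, and its second probe set differed by -0.03. Groups of 3 arrays are too small for a test of single outlying arrays.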

How the results depend on the processing

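Of 174 counts of members past the threshold, over 16 comparisons and 11 other ways of processing, 162 stayed within 1.5 times the reported one and 12 did not. With only the compared groups in the fit, the counts for doxycycline in the BMI1-shRNA line were 1 at 24 h and 1 at 32 h, those for the difference between lines 0 at 32 h and 1 at 48 h, that for 48 h against 0 h in the control-shRNA line 1, and that for 48 h against 24 h in dosed BMI1-shRNA cells 0. These fits hold fewer arrays. With the filter at the 75th percentile doxycycline gave 5 over all times in the BMI1-shRNA line, and the difference between lines 2 at 24 h and 2 at 32 h. Averaging the probe sets of each gene gave 5 for doxycycline at 48 h in the BMI1-shRNA line. Quantile normalization gave 11 for 48 h against 0 h and 1 for 48 h against 24 h in the BMI1-shRNA line. Where no reason is given, the cause was not tested. One gene reversed: CDC25C, 0.0047 log2 between lines as reported, was -0.1505 (adjusted p = 0.04, limma) as the mean of its probe sets.

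The 16 do not include the steps to 24 or 32 h from 0 h or the line difference at 0 h. Of these, with only the compared groups the count for 32 h against 0 h was 3 in the BMI1-shRNA line and 18 in the control-shRNA line, and that for 24 h against 0 h was 2 in the control-shRNA line. Under quantile normalization the count for 32 h against 0 h was 18 in the BMI1-shRNA line and 24 in the control-shRNA line. From 32 to 48 h the call for PLK1 in undosed control-shRNA cells, and those in dosed cells of both lines, ended with only the compared groups.

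With each array left out, 172 of 192 counts stayed within 1.5 times. The ranges were 1 to 3 at 24 h, 2 to 4 at 32 h, 2 to 3 at 48 h and 3 to 6 over all times for doxycycline in the BMI1-shRNA line, and 0 to 0 in the control-shRNA line. They were 1 to 2, 0 to 1, 2 to 2 and 4 to 5 for the difference between lines at 24, 32 and 48 h and over all times. For 48 h against 0 h they were 3 to 7 in the BMI1-shRNA and 5 to 10 in the control-shRNA line. They were 1 to 3 for 48 h against 24 h in dosed BMI1-shRNA cells and 27 to 28 between undosed lines. With a replicate block the count for 48 h against 0 h in the BMI1-shRNA line was 6, against 7 reported, and no other count of the 16 moved; the numbers mark no pairing. Dim genes such as UBE2C in the control-shRNA line are limited by their signal over background.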
